A study of Mus musculus with 4 samples.

Results

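The metabolic nuclear receptors of the heart and their coactivator PGC-1 (peroxisome proliferator-activated receptor gamma coactivator) were examined in ventricular RNA of mice that overexpress serum response factor (SRF). The set held 10 genes, Ppara, Ppard, Rxra, Rxrb, Rxrg, Esrra, Thra, Nr3c1, Nr3c2 and Ppargc1a. Members were all probe sets of the array whose annotation gave exactly 1 of these gene symbols, and 12 of 12488 probe sets qualified. They covered 9 of the 10 genes, and Nr3c2 is not analysed here. Rxra, Esrra and Thra had 2 probe sets each and the other 6 genes had 1.

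Ventricles were taken at 6 months of age from transgenic mice, in which SRF was moderately overexpressed in the heart alone, and from non-transgenic mice, with 2 arrays in each group. The sources used here do not give the strain, the sex, the promoter of the transgene, the number of lines or any pooling of animals. Separate animals are not stated either, and the p-values thus cover the spread among these arrays only, which can be technical. The Srf transcript was not analysed here, and the overexpression was left unchecked.

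Nuclear receptors are transcription factors that switch genes on or off when a hormone or a lipid binds them. In heart muscle the PPARs sense fatty acids and drive the genes that import and burn them, and the RXRs pair with PPAR and thyroid hormone receptors on DNA. ERR alpha, the product of Esrra, is an orphan receptor that works with PGC-1 alpha, the product of Ppargc1a, on genes of the respiratory chain. The thyroid receptor encoded by Thra sets the myosin and calcium pump genes, and Nr3c1 and Nr3c2 encode the glucocorticoid and mineralocorticoid receptors.

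Esrra was the only member past the test, and it was lower in transgenic ventricle. Its probe set 103964_at gave a signal of 764.0 and 774.3 in transgenic ventricle, against 1015.4 and 1040.8 in non-transgenic ventricle. The groups did not overlap, and arrays of 1 group lay close together. The log2 change was -0.41 ± 0.09 (SE; 95% interval -0.62 to -0.21), which is 1.33-fold lower, and limma gave it an adjusted p of 0.0345 (Benjamini-Hochberg, over 7453 probe sets). All fold changes are on the scale of log2(signal + 9), on which those of dim genes come out too small.

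The call of Esrra rested on all 4 arrays together. Leaving out any 1 array ended it, with limma's adjusted p values at 0.0808 to 0.132, although the log2 change stayed between -0.43 and -0.40. The call also ended after median centring of the arrays (log2 change -0.33, adjusted p = 0.0754 in limma), and with no filter or no variance trend in limma (adjusted p = 0.0546 and 0.155). The other Esrra probe set, 102145_f_at, is of a kind that can bind several related sequences. It gave 154.7 and 151.4 in transgenic ventricle, against 141.8 and 201.2 in non-transgenic ventricle, so that its groups overlapped. Its log2 change was -0.14 ± 0.19 (SE), and its sign turned to 0.10 without non-transgenic replicate 2. The changes of both Esrra probe sets differed by 0.28 on the log2 scale, which was less than the difference of 0.44 between the non-transgenic arrays in the gap of the probe sets.

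Among the 11 member probe sets that passed the filter on dim signals, 1 was lower, 0 were higher and 10 did not pass the test. Over the whole array 3.86% of tested probe sets were lower and 4.07% higher, so 1 of 11 is near the background of 7.93% in either direction. At an unadjusted p below 0.05 in limma 2 members were lower (Esrra and Rxrb) and 0 higher, where 24.2% of all tested probe sets had such a p. Transgenic and non-transgenic arrays were fully separated in 7 of the 11, as in 55.9% of all tested probe sets. Of these 7, 5 were lower and 2 higher in transgenic ventricle. Among all tested probe sets 28.1% were fully separated and lower. The median log2 change of the 11 was -0.20, beside -0.01 over all tested probe sets. An exact permutation test of 2 against 2 arrays cannot give a two-sided p below 0.333, so no such test was used for single genes.

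**Figure D1:**
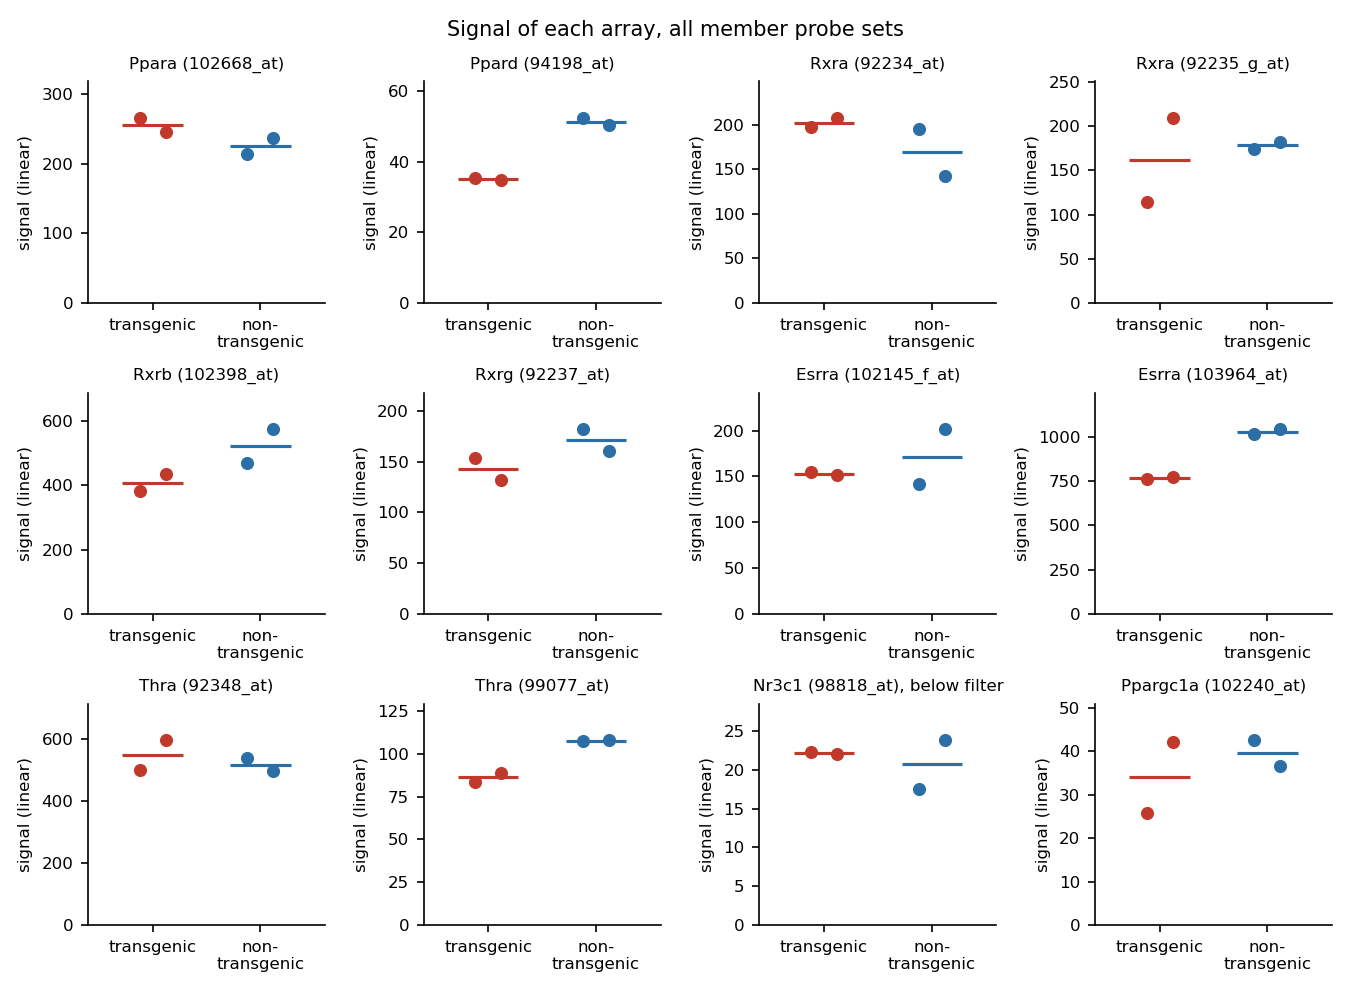
Signal of each array on a linear scale for the 12 member probe sets, with transgenic arrays in red at the left of each panel and non-transgenic arrays in blue at the right; bars are group means. The panel of Esrra probe set 103964_at shows transgenic arrays at 764.0 and 774.3, below both non-transgenic arrays, while Ppargc1a overlaps between groups.

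The promoters of Esrra, Ppard and Ppara are printed to show what lies before the starts of the called receptor and of the PPAR genes. Neither PPAR gene passed the test. RefSeq windows were found for 8 of the 10 genes (build GRCm38.p6), and the 250 bases before the annotated start are given, 5′ to 3′ on the strand of the gene. Capitals mark matches on either strand to the GC box GGGCGG, bound by Sp factors, and to the core CGCATGCG of sites of the mitochondrial regulator NRF1. The Esrra window is chr19:6921809-6922058 on the minus strand, that of Ppard chr17:28232504-28232753 on the plus strand, and that of Ppara chr15:85735526-85735775 on the plus strand.
Esrra: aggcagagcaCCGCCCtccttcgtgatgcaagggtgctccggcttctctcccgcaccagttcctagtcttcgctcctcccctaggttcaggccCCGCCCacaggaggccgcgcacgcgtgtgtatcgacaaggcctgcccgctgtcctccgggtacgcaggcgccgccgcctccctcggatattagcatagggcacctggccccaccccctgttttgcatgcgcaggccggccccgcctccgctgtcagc
Ppard: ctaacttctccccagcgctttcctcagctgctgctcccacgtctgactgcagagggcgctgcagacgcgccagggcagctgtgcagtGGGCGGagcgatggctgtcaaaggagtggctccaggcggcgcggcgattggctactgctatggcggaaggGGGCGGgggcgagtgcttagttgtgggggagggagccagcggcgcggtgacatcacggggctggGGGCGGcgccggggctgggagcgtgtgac
Ppara: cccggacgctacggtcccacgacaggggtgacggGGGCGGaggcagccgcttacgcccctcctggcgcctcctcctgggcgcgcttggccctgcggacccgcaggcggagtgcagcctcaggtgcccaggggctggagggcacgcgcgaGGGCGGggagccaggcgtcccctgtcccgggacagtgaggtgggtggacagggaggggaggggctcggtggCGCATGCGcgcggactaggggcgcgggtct
Esrra and Ppara had 2 GC boxes each and Ppard had 3, and 32.7% of all 32851 windows of this length held at least 1. Ppara also held the NRF1 core, which 1.55% of all windows held. The receptor core AGGTCA, the extended ERR element TCAAGGTCA (which contains that core) and the CArG box, the site of SRF, matched nowhere in these 3 windows. All windows held them in 14%, 0.387% and 1.47% of cases. A match is a run of letters and not a measured binding site.

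Ppard, the PPAR expressed in most tissues, had the largest difference in size among the members that did not pass. It gave 35.3 and 34.9 in transgenic ventricle, against 52.2 and 50.3 in non-transgenic ventricle. The groups did not overlap, and the values were close to the filter, which lay at a signal of 30.02. The log2 change was -0.45 ± 0.22 (SE; 95% interval -0.97 to 0.07), and limma's adjusted p was 0.265.

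Ppara, the main PPAR of fatty acid burning tissues, lay the other way. It gave 264.8 and 245.7 in transgenic ventricle, against 214.0 and 236.6 in non-transgenic ventricle. All transgenic values were above all non-transgenic ones, by a margin smaller than the spread within either group. The log2 change was 0.17 ± 0.13 (SE; 95% interval -0.13 to 0.48), and the adjusted p was 0.463 in limma. Removal of non-transgenic replicate 1 brought the change to 0.10.

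The RXR genes, whose products are the shared partners of the PPAR and thyroid receptors, did not pass the test. Rxrb gave 383.3 and 433.1 in transgenic ventricle, against 468.4 and 573.0 in non-transgenic ventricle. Its groups did not overlap, and its log2 change was -0.34 ± 0.14 (SE; 95% interval -0.66 to -0.02), with an unadjusted p of 0.0404 and an adjusted p of 0.184 in limma. Its size varied with the arrays used, at -0.48 when non-transgenic replicate 1 was left out and at -0.20 when non-transgenic replicate 2 was. Rxrg, the form enriched in striated muscle, gave 153.1 and 132.0 in transgenic ventricle, against 181.6 and 160.0 in non-transgenic ventricle. Its log2 change was -0.25 ± 0.16 (SE) with an adjusted p of 0.377 in limma, and its groups did not overlap. It came to -0.15 on removal of transgenic replicate 2, and non-transgenic replicate 1 left out gave -0.16.

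Rxra, the form needed for growth of the heart wall in the embryo, could not be given a direction. Probe set 92234_at gave 197.3 and 207.0 in transgenic ventricle, against 195.5 and 142.7 in non-transgenic ventricle, a log2 change of 0.26 ± 0.18 (SE). Removal of non-transgenic replicate 1 took that value to 0.48, while removal of non-transgenic replicate 2 gave 0.046. Probe set 92235_g_at gave 114.3 and 208.6 in transgenic ventricle, against 174.6 and 181.7 in non-transgenic ventricle, a log2 change of -0.19 ± 0.26 (SE). Here the transgenic arrays stood further apart than the groups, and without transgenic replicate 1 the log2 change turned to 0.22. Neither probe set passed the test (limma's adjusted p = 0.411 and 0.700).

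Thra, the main thyroid hormone receptor gene of heart muscle, also gave opposite signs on its 2 probe sets. Probe set 92348_at gave 497.8 and 593.9 in transgenic ventricle, against 535.8 and 495.4 in non-transgenic ventricle, and its groups overlapped. Its log2 change was 0.08 ± 0.12 (SE; 95% interval -0.21 to 0.37), and it turned to -0.05 without transgenic replicate 2. Probe set 99077_at gave 83.7 and 88.9 in transgenic ventricle, against 107.3 and 107.8 in non-transgenic ventricle, with no overlap. Its log2 change was -0.29 ± 0.16 (SE), with an adjusted p of 0.322 in limma against 0.749 for the other probe set. The log2 gap of the first over the second probe set was 2.45 and 2.62 in transgenic ventricle, against 2.23 and 2.11 in non-transgenic ventricle, so that it did not overlap between groups. That gap is a difference between probe sets and was not tested.

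Ppargc1a, which encodes PGC-1 alpha, did not differ beyond its spread. It gave 25.9 and 42.1 in transgenic ventricle, against 42.5 and 36.5 in non-transgenic ventricle, and the groups overlapped. The log2 change was -0.20 ± 0.28 (SE; 95% interval -0.86 to 0.47), with an adjusted p of 0.719 in limma, and it turned to 0.08 without transgenic replicate 1. The interval is wide enough to hold a change as large as that of Esrra in either direction, so a change of that size was not detectable for this dim probe set.

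Nr3c1, the glucocorticoid receptor gene, had the only probe set below the filter. It gave 22.3 and 22.1 in transgenic ventricle, against 17.6 and 23.8 in non-transgenic ventricle, and the groups overlapped. In a fit of all probe sets without the filter its log2 change was 0.08 ± 0.29 (SE; 95% interval -0.62 to 0.78), where limma called 1.26% of probe sets lower and 1.38% higher. At this signal the array could not show a change of the size seen for Esrra.

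**Figure D2:**
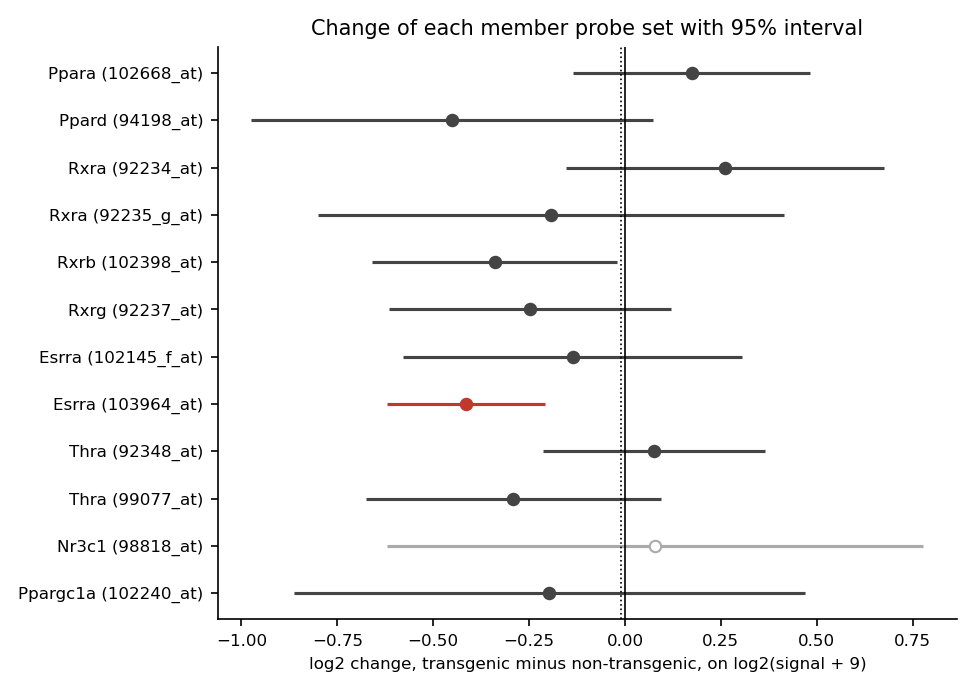
Log2 change of each member probe set, transgenic minus non-transgenic, on log2(signal + 9), with 95% moderated intervals; red marks the probe set past the test, the open grey point is the probe set below the filter (fit without the filter) and the dotted line is the median of all tested probe sets. The interval of Esrra probe set 103964_at, -0.62 to -0.21, lies below 0, and that of Rxrb ends at -0.02.

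The probe sets most like Esrra 103964_at over the 4 arrays were taken by the smallest distance between mean-centred log2 values. They belonged to Desi1 (distance 0.01 on the log2 scale), Mrpl23 (0.03) and Grcc10 (0.03). Desi1, the nearest, was dim, at 43.7 and 44.3 in transgenic ventricle, against 61.0 and 62.1 in non-transgenic ventricle. It did not pass the test (limma's adjusted p = 0.266). Mrpl23, a protein of the mitochondrial ribosome, gave 722.3 and 742.1 in transgenic ventricle, against 979.4 and 980.3 in non-transgenic ventricle. Grcc10 gave 1181.6 and 1165.3 in transgenic ventricle, against 1566.5 and 1586.8 in non-transgenic ventricle. With 4 arrays in 2 groups, likeness means little more than a similar group difference and a small spread.

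Signals of cell type markers moved with the groups. The counts below stand beside 3.86% of all tested probe sets lower and 4.07% higher. Markers of heart muscle such as Myl2, Myl3, Tnni3 and Myh6 were bright on all arrays. In bulk tissue fewer cells of a type and less RNA per cell cannot be told apart. Of 10 tested muscle markers 6 were lower and 0 higher, and their summed signal was 71972 and 73962 in transgenic ventricle, against 93194 and 91205 in non-transgenic ventricle. Fibroblast markers summed to 12987 and 12444 in transgenic ventricle, against 7798 and 7681 in non-transgenic ventricle, with 9 of 12 tested higher and 0 lower. The other 3 did not pass, and each had a negative log2 change: Pdgfra -0.51 (limma's adjusted p = 0.106), Pdgfrb -0.17 and Fn1 -0.02. Groups did not overlap for Pdgfra and Pdgfrb. A dimmer Pdgfra probe set went up without overlap, at 50.9 and 46.5 in transgenic ventricle, against 23.4 and 27.3 in non-transgenic ventricle. It did not pass either (log2 change 0.75), so Pdgfra could not be given a direction. Col1a1, Col1a2 and Col3a1, counted as higher by their brightest probe sets, had further probe sets that did not pass. That of Col1a2 had a log2 change of -0.17, at 476.7 and 567.9 in transgenic ventricle, against 556.0 and 618.1 in non-transgenic ventricle. Those of Col1a1 (0.25) and Col3a1 (0.68 and 0.11) had positive changes. Macrophage markers summed to 4435 and 4495 in transgenic ventricle, against 2799 and 2988 in non-transgenic ventricle, with 5 of 11 tested higher and 0 lower. Of 9 tested endothelial markers 1 was higher (Eng) and 1 lower (Tie1). Of 7 tested genes of the skeletal muscle list 1 was lower (Ckm), 0 higher and 6 not past the test. The log2 change was negative for 5 of the 7 and positive for 2. Among the latter was Pvalb (0.68), whose groups did not overlap, so the list as a whole could not be given a direction. Hepatocyte markers summed to 451 and 572 in transgenic ventricle, against 3198 and 5898 in non-transgenic ventricle, with 11 of 13 tested markers lower, led by Apoa1 and Alb. No marker was listed at exactly 0. The liver fatty acid carrier Fabp1, named here after its values were seen, was near 0 on its brighter probe set in transgenic ventricle, at 3.0 and 2.4, against 82.3 and 194.8 in non-transgenic ventricle. Adipocyte markers summed to 468 and 488 in transgenic ventricle, against 699 and 832 in non-transgenic ventricle, with Adipoq the 1 called of 4 tested. Ppara and Rxra are also strongly expressed in liver, and the part of these markers in the values of the receptors was not tested.

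**Figure D3:**
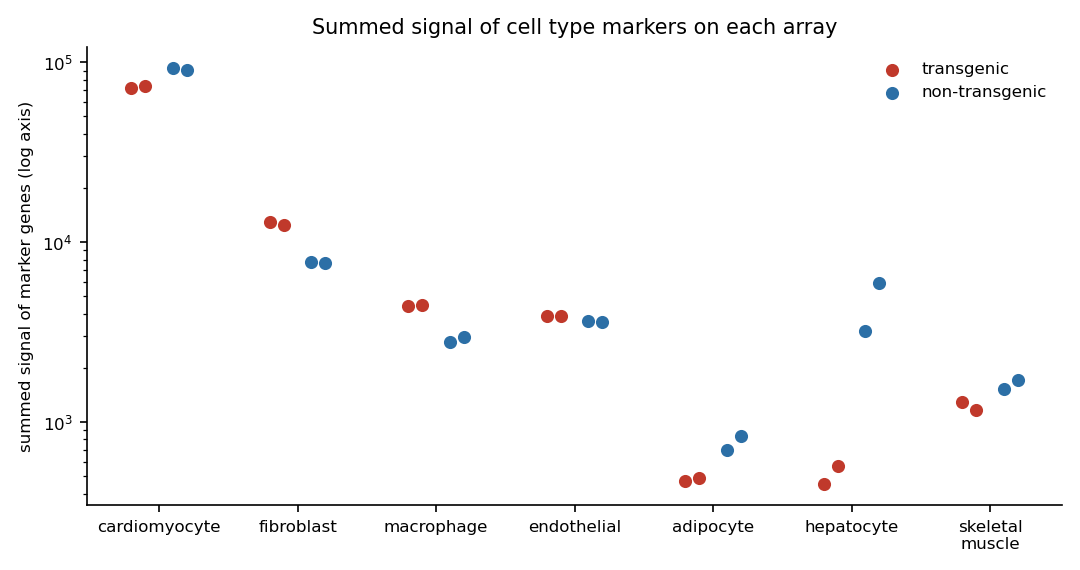
Summed signal of cell type markers on each array (log axis), transgenic arrays in red at the left and non-transgenic arrays in blue at the right of each list; sums are to be compared within a list only. Hepatocyte markers are at 451 and 572 in transgenic ventricle and at 3198 and 5898 in non-transgenic ventricle.

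Many genes that PPAR and ERR alpha with PGC-1 are known to drive were lower in transgenic ventricle. Of 28 genes of fatty acid uptake and oxidation on the array, 26 were tested, and 17 were lower, 0 higher and 9 not past the test (22 lower and 0 higher at an unadjusted p below 0.05 in limma). Their median log2 change was -0.53, against -0.01 over all tested probe sets. Of all tested probe sets 3.86% were lower, and 24.2% had an unadjusted p below 0.05 in limma in either direction. Muscle, hepatocyte and adipocyte markers were lower in the same arrays, by the counts given above, and their part in this count was not tested. Acot1, an acyl-CoA thioesterase, gave 38.6 and 56.5 in transgenic ventricle, against 124.2 and 118.9 in non-transgenic ventricle, and was 2.34-fold lower. Pdk4, the kinase that shuts pyruvate dehydrogenase and a classical PPAR target, gave 1864.9 and 1561.9 in transgenic ventricle, against 2661.7 and 2308.0 in non-transgenic ventricle. Lpl, the lipase that frees fatty acids from plasma lipoproteins, was 1.37-fold lower and Mlycd, which removes the malonyl-CoA brake on fatty acid entry, 1.40-fold lower. The others past the test were Ech1, Slc27a1, Eci1, Acaa2, Crat, Cpt2, Hadh, Acads, Etfb, Acadm, Slc25a20, Hadhb and Decr1. Further tested probe sets of Crat, Acads and Etfb had negative log2 changes (-0.32, -0.35 and -0.68) but did not pass. A further Lpl probe set did pass (-0.56). The number lower was 10 without transgenic replicate 2 and 11 after median centring, 8 without the filter and 1 without a variance trend in limma, while removal of non-transgenic replicate 1 gave 11 and of non-transgenic replicate 2 gave 9. Ech1, Slc27a1, Eci1, Acaa2 and Crat were the 5 called in each fit that left out 1 array. The call of Lpl ended without non-transgenic replicate 1, that of Pdk4 without that array or transgenic replicate 2, and that of Mlycd without it or either transgenic array. The call of Acot1 held only without transgenic replicate 2.

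Of 34 energy genes known as ERR and PGC-1 targets, 32 were tested. Of these, 14 were lower, 0 higher and 18 not past the test, beside 3.86% lower over all tested probe sets. At an unadjusted p below 0.05 in limma 23 were lower and 0 higher, where 24.2% of all tested probe sets had such a p. Their median log2 change was -0.28, and it came to -0.20 after median centring and to -0.19 after quantile normalization. Ckmt2, the mitochondrial creatine kinase of the sarcomere, gave 5750.1 and 5451.6 in transgenic ventricle, against 7273.8 and 7745.5 in non-transgenic ventricle. Idh3a, a subunit of a citric acid cycle dehydrogenase and an ERR alpha target, gave 883.2 and 935.4 in transgenic ventricle, against 1371.9 and 1152.5 in non-transgenic ventricle, a call that ended without either transgenic array or non-transgenic replicate 1. The others lower were Cox6a2, Cox8b, Cox7a1, Cox5b, Ndufb5, Ndufa9, Ndufv1, Dlst, Sdhb, Slc25a4, Ogdh and Sdha. The number lower was 5 to 8 when 1 array was left out (without transgenic replicate 1 it was 5 and without transgenic replicate 2 it was 6, while removal of non-transgenic replicate 1 gave 8 and of non-transgenic replicate 2 gave 7), 6 after median centring, 4 without the filter and 0 without a variance trend. The muscle markers moved the same way with the groups, and their part in these counts was not tested. Both lists were chosen with earlier results of these data known and give no independent support.

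Regulators that share the mitochondrial genes with PGC-1 had 0 of 11 tested genes past limma's adjusted threshold (2 lower and 1 higher at an unadjusted p below 0.05). Over all tested probe sets the shares were 7.93% and 24.2%, near both of these counts. The smallest p was that of Mef2d, a muscle transcription factor, with 1825.8 and 1555.4 in transgenic ventricle, against 1372.7 and 1298.6 in non-transgenic ventricle (log2 change 0.33 ± 0.10, SE; adjusted p = 0.0981 in limma). Tfb2m, a mitochondrial transcription factor, had a log2 change of -0.38, Atf2 one of -0.44 and Mef2c one of -0.26, all with an adjusted p of 0.176 or more in limma.

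**Figure D4:**
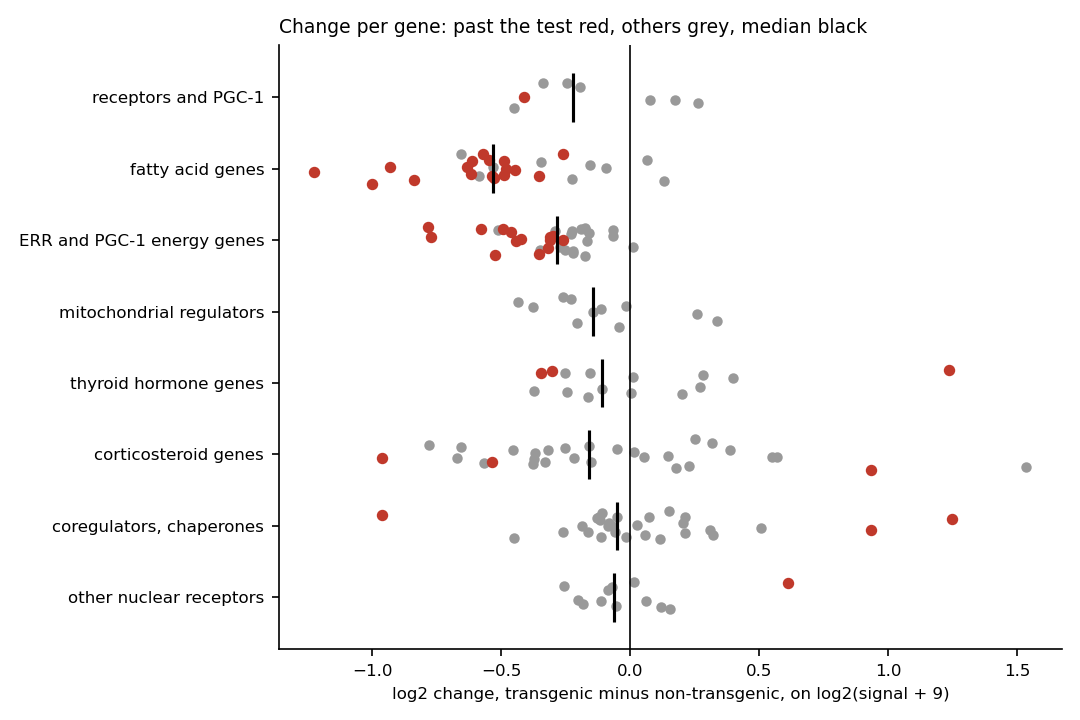
Log2 change per tested gene (its brightest probe set), transgenic minus non-transgenic, for the receptors with PGC-1 and 7 further lists; red points passed the test, grey points did not, and black bars are medians. The fatty acid genes centre on -0.53 and the ERR and PGC-1 energy genes on -0.28, while the receptors hold 1 red point.

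Of 15 tested targets of the thyroid receptor 1 was higher, 2 lower and 12 not past the test, where 4.07% of all tested probe sets were higher and 3.86% lower. Their median log2 change was -0.11, and median centring took it to -0.028. Removal of non-transgenic replicate 1 gave -0.012, and that of transgenic replicate 2 gave -0.055. Myh7, the slow myosin heavy chain that thyroid hormone represses, gave 7669.2 and 9482.7 in transgenic ventricle, against 3483.3 and 3763.2 in non-transgenic ventricle. It was 2.35-fold higher, on a probe set of the kind that can bind several related sequences. The other Myh7 probe set, of that kind too, was dim. It gave 72.9 and 90.2 in transgenic ventricle, against 37.7 and 28.1 in non-transgenic ventricle (log2 change 1.11). Myh6, the fast chain that the hormone induces, gave 8729.7 and 7950.4 in transgenic ventricle, against 10497.1 and 10715.6 in non-transgenic ventricle, and Atp2a2, the calcium pump, was 1.23-fold lower. Myh6 and Atp2a2 are also among the muscle markers given above, of which all 10 had a negative log2 change, and the part of these in both values was not tested. The calls of Myh6 and Atp2a2 ended after median centring and after quantile normalization. That of Atp2a2 ended on removal of any array, and that of Myh6 on removal of any but transgenic replicate 1. The Thra probe sets gave 0.08 and -0.29 beside these values.

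Of 29 tested coregulators and chaperones of nuclear receptors 2 were higher (Fkbp5 and Hsp90aa1) and 1 lower (Fkbp4), near the background of 4.07% and 3.86%, with a median log2 change of -0.05. Fkbp4, which carries the hormone-bound receptor toward the nucleus, gave 1111.7 and 961.6 in transgenic ventricle, against 2008.1 and 2037.2 in non-transgenic ventricle. This probe set is of the kind that can bind several related sequences. Fkbp4 was 1.95-fold lower (limma's adjusted p = 0.00280). A further Fkbp4 probe set was lower too, with a log2 change of -0.75 and an adjusted p of 0.0158 in limma. Fkbp5, which holds the receptor in a state of low hormone affinity and is itself a glucocorticoid target, gave 179.2 and 179.3 in transgenic ventricle, against 102.3 and 78.5 in non-transgenic ventricle. It was 1.91-fold higher (adjusted p = 0.0234 in limma), a call lost on removal of any array but non-transgenic replicate 1. Hsp90aa1, the inducible chaperone at the core of that complex, gave 1514.9 and 1304.1 in transgenic ventricle, against 506.5 and 680.1 in non-transgenic ventricle, and was 2.37-fold higher.

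Of 29 tested genes that respond to corticosteroids, 1 was higher and 2 lower (Fkbp5, Fkbp4 and Pdk4, each also in another list), and 26 did not pass the test, beside 7.93% of all tested probe sets called in either direction. At an unadjusted p below 0.05 in limma 6 were higher and 7 lower, where 24.2% of all tested probe sets had such a p. The median log2 change was -0.16, and median centring took it to -0.079. It came to -0.054 on removal of non-transgenic replicate 1, while removal of non-transgenic replicate 2 gave -0.29. Cdkn1a was counted as not past the test by its brightest probe set (log2 change 0.23). A further Cdkn1a probe set was higher, with a log2 change of 0.88 and an adjusted p of 0.0376 in limma. Of 30 further nuclear receptors on the array 18 lay below the filter. Among the 12 tested, Nr4a1, an orphan receptor of the immediate early response, was higher, with 403.1 and 376.5 in transgenic ventricle, against 275.0 and 230.4 in non-transgenic ventricle, and 0 were lower, so that 1 of 12 is near the background of 7.93%. The call of Nr4a1 was lost on removal of any array but non-transgenic replicate 1.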

How the data were processed

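The values that the authors deposited are linear signal intensities, 1 for each probe set of each array. The sources used here give neither the software nor the scaling target. After removal of the extreme 2% at either end, every array had a mean of 150.1, as common scaling would give. Per the labels' protocols, total RNA was labelled with biotin as Affymetrix prescribes. Of 12488 probe sets, 66 controls were left out. The platform annotation gave 10833 probe sets 1 symbol and 396 several, and 1193 were not listed.

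Signals were transformed to log2(signal + 9), where 9 is the rounded 20th percentile. The 40% of probe sets with the lowest mean over all 4 arrays were left out, and 7453 were tested with limma 3.58.1 in R 4.3.3 (lmFit, eBayes with a variance trend, two-sided, Benjamini-Hochberg adjustment, adjusted p threshold 0.05). The prior carried 5.05 degrees of freedom and the residuals 2. The fit was also run on values simulated from its own means and variances for the tested probe sets, with no further filter. Such a run cannot show how well the fit suits these arrays. The number of arrays limits the precision.

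All member probe sets are named, and from each pathway list the genes past the threshold, or otherwise the 4 with the smallest p. Marker lists are given as sums. Lists used 1 probe set per gene, the brightest. The members and lists were chosen with earlier results of these data known. Alternatives were other pseudocounts, scalings, filters and variance models, a replicate block and leaving out each array.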

Additional observations from a re-analysis of the deposited data

How the results depend on the processing

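Of 130 log2 changes of member probe sets recomputed under the alternatives, 119 kept their direction and side of the threshold, 7 (all Esrra 103964_at) lost the call and 4 turned sign. For Esrra, limma's adjusted p was 0.0754 after median centring, 0.0546 without the filter and 0.155 without a variance trend. It was 0.0227 to 0.0398 under the other pseudocounts, quantile normalization, the stricter filter and the replicate block. So 0 member probe sets were lower under those 3 settings and in each fit that left out an array. Signs turned in the fits that left out 1 array, where the log2 change ran from -0.60 to 0.22 for Rxra 92235_g_at, from -0.38 to 0.10 for Esrra 102145_f_at, from -0.049 to 0.20 for Thra 92348_at and from -0.47 to 0.078 for Ppargc1a. The cause was not tested.

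Over the whole array 303 were higher and 288 lower. Without the filter the counts were 172 and 157, without a variance trend 44 and 34, and leaving out 1 array gave 125 to 232 higher and 158 to 191 lower. The share of higher among called probe sets was 51.3%, and 66.8% after median centring. The replicate block gave 348 higher and 345 lower and moved no other count by over 1.5 times, except that 2 corticosteroid genes in place of 1 were higher. Same-numbered arrays did not deviate together (correlation of deviations -0.06). With 2 arrays in each group the crossed numbers give the same value with the sign turned (0.06). This single value cannot settle whether the numbers pair the samples.

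The count of lower fatty acid genes was 11 after median centring, 8 without the filter, 1 without a variance trend and 9 to 12 leaving out an array. That of ERR and PGC-1 energy genes was 6 after median centring, 8 after quantile normalization, 4 without the filter, 0 without a variance trend and 5 to 8 leaving out an array. Thyroid genes had 0 lower under median centring, quantile normalization, no filter or no variance trend and 0 to 1 leaving out an array, and 0 higher without a variance trend. Corticosteroid genes had 2 higher after median centring or with the lowest 60% left out, 0 higher without the filter or a variance trend, and 0 to 1 leaving out an array. They had 1 lower after median centring, quantile normalization or without the filter, 0 without a variance trend and 1 to 3 leaving out an array. Coregulators had 1 higher without the filter, 0 higher and 0 lower without a variance trend, and 1 to 2 higher leaving out an array. Other nuclear receptors had 0 higher without the filter or a variance trend, and 0 to 1 leaving out an array. The median of thyroid genes turned to 0.00 (0.000985) when probe sets of a gene were averaged. The median log2 change of coregulators turned to 0.026 after median centring and ran from -0.034 to 0.030 leaving out an array. That of other nuclear receptors turned to 0.017 after median centring and ran from -0.12 to 0.024 leaving out an array. Probe sets near the filter, such as Ppard, Ppargc1a and Nr3c1, had wide intervals.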
